A study of Mus musculus with 10 samples.

Results

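Steroidogenic enzymes and cholesterol import were followed through 8 genes, Scarb1, Star, Cyp11a1, Fdx1, Fdxr, Hsd3b1, Cyp17a1 and Por, which were picked by symbol from the 24470 gene entries of the deposited count table. All 8 were present, and all 8 passed the filter on low counts that left 13941 genes for testing. The measurements came from bulk RNA-seq of cultured fetal testes, made to study the part of glycogen breakdown in the developing gonad. Male gonads, each still joined to its mesonephros, were taken at E12.5 from 5 C57BL/6 mouse embryos, and the pair of gonads of an embryo was divided between 2 treatments lasting 48 h. The vehicle group (n = 5) received DMSO, and the GPI group (n = 5) received CP 316819 at 75 µM, an inhibitor of glycogen phosphorylase, the enzyme that frees glucose units from glycogen. After culture the mesonephros was cut away and the whole gonad, with all of its cell types, gave 1 library, so that mice M1 to M5 each contributed 1 vehicle and 1 GPI library. Libraries held from 10203679 counts (vehicle, mouse M2) to 15635322 counts (GPI, mouse M2). Normalized counts are counts divided by a library's effective size, which is its total multiplied by its TMM factor, and then multiplied by the mean effective size of the 10 libraries.

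Steroid hormones are made from cholesterol, which cells take up from lipoproteins and pass to the mitochondrion, where the side chain is cleaved off to give pregnenolone. The mitochondrial enzyme receives its electrons through a short chain of a reductase and a ferredoxin, whereas later enzymes work in the endoplasmic reticulum and are served by a different reductase. In the fetal testis these steps are a known property of fetal Leydig cells, the interstitial cells that supply the androgens needed for masculinization.

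Import came first in the order of roles. Scarb1 (Entrez Gene 20778, chr5:125277087-125341094 on the minus strand of mm10) encodes the scavenger receptor that takes up cholesteryl esters from high-density lipoprotein. With vehicle it had 278, 431, 413, 355 and 460 normalized counts in mice M1 to M5, and with GPI it had 623, 741, 803, 973 and 852. Mouse M1 was lowest under both treatments, mouse M5 was highest with vehicle and mouse M4 with GPI, and the groups did not overlap, the lowest GPI library standing 1.35 times above the highest vehicle library. Scarb1 rose from 387 ± 72.3 to 798 ± 130 normalized counts (SD, n = 5 each), a log2 fold change of 1.05 (standard error 0.11, 95% interval 0.82 to 1.28, adjusted p = 8.79e-06 by edgeR's quasi-likelihood F test with Benjamini-Hochberg correction), and was higher with GPI in 5 of 5 mice. In RNA of whole gonads, more cells of a type and more RNA per cell cannot be told apart, and this holds for each value that follows.

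Star (Entrez Gene 20845, chr8:25808513-25815982, plus strand) encodes the protein that brings cholesterol to the inner mitochondrial membrane, the regulated entry to steroid synthesis. Its vehicle libraries held 254, 288, 355, 302 and 376 normalized counts, and its GPI libraries 542, 423, 612, 655 and 498. The vehicle libraries lay close together, the highest being 1.48 times the lowest, and the groups were separated by little, since the GPI library of mouse M2 was 1.12 times the vehicle library of mouse M5. Between treatments Star increased from 315 ± 50.2 to 546 ± 91.9 normalized counts (SD, n = 5 each), which is a log2 fold change of 0.79 (standard error 0.12, 95% interval 0.53 to 1.05) with an adjusted p of 0.000293 from edgeR's quasi-likelihood F test with Benjamini-Hochberg correction. Each of the 5 mice had more Star in its GPI gonad, by log2 ratios of 0.40 (mouse M5) to 1.11 (mouse M4).

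Cyp11a1 (Entrez Gene 13070, chr9:58015017-58027023, plus strand) encodes the side-chain cleavage enzyme, which turns cholesterol into pregnenolone. It had 317, 638, 1363, 498 and 1707 normalized counts in the vehicle libraries of mice M1 to M5 and 4583, 4435, 7268, 7873 and 5180 in their GPI libraries. Vehicle libraries were spread widely, mice M5 and M3 high and mouse M1 low, with the highest 5.39 times the lowest, while the GPI libraries differed by at most 1.77 times. Every GPI library was above every vehicle library, by 2.60 times at the closest approach. The fitted log2 fold change was 2.90 (standard error 0.27, 95% interval 2.31 to 3.49), with an adjusted p of 4.56e-06 in edgeR's quasi-likelihood F test with Benjamini-Hochberg correction. Taking the gonads of each embryo as a pair, the log2 ratio was 3.85, 2.79, 2.41, 3.98 and 1.60 in mice M1 to M5. The smallest ratio belonged to the mouse whose vehicle gonad already had the most Cyp11a1, and the 2 largest to the mice with the least. The vehicle value is itself the denominator of this ratio, and a dependence on the vehicle level was not tested.

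Electrons reach Cyp11a1 through ferredoxin, the product of Fdx1 (Entrez Gene 14148, chr9:51943023-51963602, minus strand), and ferredoxin reductase, the product of Fdxr (Entrez Gene 14149, chr11:115268025-115276969, minus strand). Fdx1 had 353, 327, 403, 285 and 449 normalized counts with vehicle and 918, 729, 1032, 1232 and 956 with GPI. Mouse M4 had the lowest vehicle library and the highest GPI library, and the groups did not overlap. For Fdxr the vehicle libraries gave 168, 255, 327, 297 and 370 normalized counts and the GPI libraries 659, 822, 931, 1002 and 892. Here mouse M1 was lowest under both treatments, and again no vehicle library reached the GPI libraries, which began 1.78 times higher. The log2 ratios of the pair of genes fell within similar limits, from 1.09 (mouse M5) to 2.10 (mouse M4) for Fdx1 and from 1.26 (mouse M5) to 1.96 (mouse M1) for Fdxr. Their difference, Fdxr minus Fdx1, was 0.22 ± 0.38 on the log2 scale (SD, n = 5), a value smaller than its spread between mice. In the test across all genes Fdxr, with a log2 fold change of 1.63 (standard error 0.11), had the smallest adjusted p of the 8, 2.02e-07, against 3.68e-06 for Fdx1 at 1.41 (standard error 0.13), both from edgeR's quasi-likelihood F test with Benjamini-Hochberg correction.

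All 8 members rose, and a link of promoter motifs to the rise was not tested. The stretches of 250 bases before the start sites of Fdx1 and Fdxr are shown because these genes encode partner proteins. Both stretches hold a GATA motif and a GC box, which was a further reason for the choice. They are from RefSeq on GRCm38.p6, the same assembly as mm10, at chr9:51963603-51963852 and chr11:115276970-115277219, both on the minus strand and read 5′ to 3′ toward the gene, and capitals mark the letters TGATAA or GGGCGG on either strand.
Fdx1: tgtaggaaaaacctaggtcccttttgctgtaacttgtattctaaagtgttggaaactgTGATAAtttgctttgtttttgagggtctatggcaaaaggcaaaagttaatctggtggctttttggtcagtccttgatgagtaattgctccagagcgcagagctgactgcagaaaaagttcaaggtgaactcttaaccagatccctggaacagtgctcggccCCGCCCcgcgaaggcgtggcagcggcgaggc
Fdxr: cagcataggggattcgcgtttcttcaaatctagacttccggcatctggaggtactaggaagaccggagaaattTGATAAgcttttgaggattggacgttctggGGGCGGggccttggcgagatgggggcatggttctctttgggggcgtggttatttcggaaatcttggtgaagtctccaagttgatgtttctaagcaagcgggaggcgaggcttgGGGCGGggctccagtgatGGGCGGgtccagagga
In Fdx1 the GATA motif TGATAA lay at -192 to -187 and a GC box on the opposite strand at -31 to -26, counted back from the start site. Fdxr had TGATAA at a like place, -177 to -172, and 3 GC boxes, at -147 to -142, -34 to -29 and -16 to -11. Of the 32851 RefSeq promoter stretches of this length, 7.94% hold TGATAA and 32.7% hold GGGCGG on either strand, so that a match describes the letters and not a bound factor.

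Hsd3b1 (Entrez Gene 15492, chr3:98852194-98859794, minus strand) encodes the hydroxysteroid dehydrogenase that converts pregnenolone to progesterone. Its normalized counts were 664, 1684, 2128, 1142 and 2973 with vehicle and 3744, 4233, 5904, 6917 and 5580 with GPI. As for Cyp11a1, the vehicle gonads differed strongly from each other, mouse M5 having 4.47 times the count of mouse M1, and the GPI gonads less so, at 1.85 times. The groups did not overlap, although the GPI library of mouse M1 was only 1.26 times the vehicle library of mouse M5. Hsd3b1 rose from 1718 ± 892 to 5275 ± 1286 normalized counts (SD, n = 5 each), with a log2 fold change of 1.75 (standard error 0.20, 95% interval 1.31 to 2.18, adjusted p = 2.71e-05 by edgeR's quasi-likelihood F test with Benjamini-Hochberg correction). Single mice ranged from 0.91 (mouse M5) to 2.60 (mouse M4) on the log2 scale.

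The 250 bases before its start site (chr3:98859795-98860044, minus strand, RefSeq on GRCm38.p6) are given for comparison with the ferredoxin genes. The only match to the exact letters searched, the GATA motif AGATAA on the opposite strand at -134 to -129, is in capitals. The like form TGATAG, left in small letters, was not searched.
Hsd3b1: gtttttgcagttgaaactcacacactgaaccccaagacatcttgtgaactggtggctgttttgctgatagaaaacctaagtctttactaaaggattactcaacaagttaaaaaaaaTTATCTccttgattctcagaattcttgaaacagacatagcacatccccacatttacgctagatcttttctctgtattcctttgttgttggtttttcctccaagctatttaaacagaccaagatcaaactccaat
AGATAA occurs on either strand in 9.99% of the 32851 promoter stretches. This window of Hsd3b1 held no GC box, unlike those of Fdx1 and Fdxr.

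Cyp17a1 (Entrez Gene 13074, chr19:46667165-46673000, minus strand) encodes the hydroxylase and lyase that leads to the androgens. The vehicle libraries had 45.4, 88.3, 131, 48.8 and 245 normalized counts, from 41 to 322 raw counts, and the GPI libraries had 766, 1028, 1961, 2637 and 1668. Mice M1 and M4 were lowest with vehicle and mouse M5 highest, at 5.40 times the count of mouse M1, whereas with GPI mouse M4 was highest and mouse M1 lowest. The lowest GPI library was 3.12 times the highest vehicle library, the widest gap of the 8 genes. The gonads of mouse M4 differed most, with a log2 ratio of 5.70, and those of mouse M5 least, with 2.76. Only 1 of the 13941 tested genes had a larger fitted log2 fold change than the 3.90 of Cyp17a1 (standard error 0.29, 95% interval 3.27 to 4.53, adjusted p = 5.91e-07 in edgeR's quasi-likelihood F test with Benjamini-Hochberg correction).

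Por (Entrez Gene 18984, chr5:135689145-135735326, plus strand) encodes cytochrome P450 oxidoreductase, which hands electrons to Cyp17a1 and to many other microsomal enzymes and is known to be made in most cells. Its libraries held 281, 277, 199, 183 and 234 normalized counts with vehicle and 450, 302, 362, 386 and 507 with GPI. Mice M1 and M2 were the highest with vehicle, where mouse M5 was the highest for each of the other 7 members, and mouse M2 was the lowest with GPI. The groups came closest here, the GPI library of mouse M2 being 1.08 times the vehicle library of mouse M1. Por rose from 235 ± 44.4 to 401 ± 79.1 normalized counts (SD, n = 5 each) by a log2 fold change of 0.77 (standard error 0.14, 95% interval 0.47 to 1.08), with an adjusted p of 0.00116 from edgeR's quasi-likelihood F test with Benjamini-Hochberg correction. In mouse M2 the log2 ratio was 0.13, and in the other 4 mice it was between 0.67 and 1.11.

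The promoter stretch of Por (chr5:135688895-135689144, plus strand, RefSeq on GRCm38.p6) is shown as that of the member found in most cells, and its capitals are 4 GC boxes, GGGCGG on either strand.
Por: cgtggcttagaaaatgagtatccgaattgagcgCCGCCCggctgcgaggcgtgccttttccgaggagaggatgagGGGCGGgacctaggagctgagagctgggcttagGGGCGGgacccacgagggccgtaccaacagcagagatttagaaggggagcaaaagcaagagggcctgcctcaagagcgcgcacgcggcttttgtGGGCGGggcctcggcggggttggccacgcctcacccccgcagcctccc
These GC boxes began at -217, -175, -142 and -48, and neither TGATAA nor AGATAA was found in the window. Promoter entries were found for 5 of the 8 members, 6 stretches in all since Cyp11a1 has 2 start sites, and the members without an entry were Scarb1, Star and Cyp17a1. Both strands were searched for the exact letters AAGGTCA, a form of the motif of the steroidogenic factor Nr5a1, and for the TATA box TATAAA. No match was found in any of the 6 stretches, where 4.08% and 12.4% of all promoter stretches have one. The shorter AGGTCA, which was not searched, does stand in the stretch before the nearer start of Cyp11a1. The motif TGACG, part of the cAMP response element, was found in 1 of the 6, at -50 to -46 of the more distant start of Cyp11a1, and in 17.8% of all stretches. Neither stretch of Cyp11a1 held a GATA motif or a GC box. No match overlapped another.

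**Figure D1:**
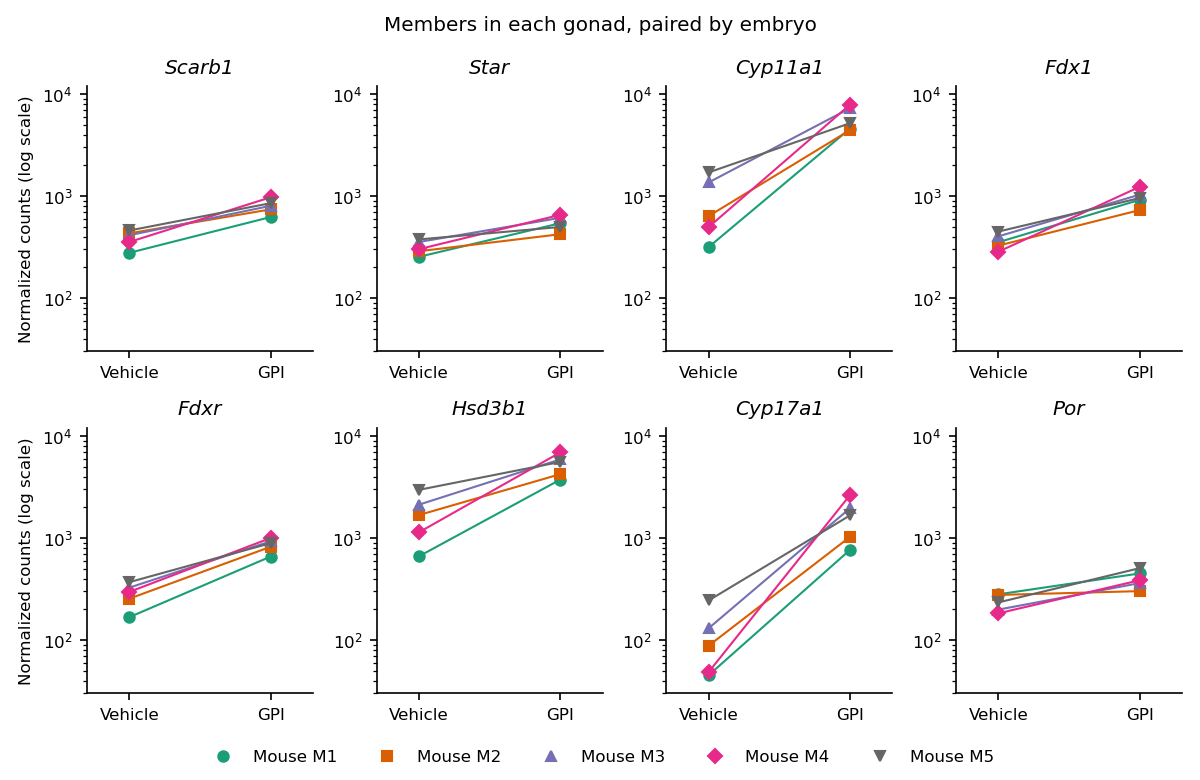
Normalized counts of the 8 members (log axis) in the vehicle and GPI gonads of 5 embryos, with a line joining the gonads of an embryo. All 40 lines go up, from the shallow line of Por in mouse M2 (277 to 302) to the steep line of Cyp17a1 in mouse M4 (48.8 to 2637).

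Over the whole set, 8 of 8 members were called higher with GPI and 0 lower, where 11.1% of the 13941 tested genes were called higher (1544 genes) and 11.9% lower (1654 genes). In 8 of 8 members every GPI library exceeded every vehicle library, which held for 7.07% of tested genes, and 8 of 8 were higher with GPI in 5 of 5 mice, as were 15.4% of tested genes. The members' median log2 fold change was 1.52, beside 0.019 for all tested genes. Fitted changes formed a graded series, Cyp17a1 (3.90) and Cyp11a1 (2.90) at the top, Hsd3b1 (1.75), Fdxr (1.63), Fdx1 (1.41) and Scarb1 (1.05) in the middle, and Star (0.79) and Por (0.77) at the bottom, each value a log2 fold change. Among the 13941 genes ordered by log2 fold change, these 8 ran from rank 2 for Cyp17a1 and rank 13 for Cyp11a1 to rank 646 for Star and rank 672 for Por.

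The order among members was largely shared by the embryos. In 21 of the 28 pairs that can be formed of the 8 members, the same gene had the larger log2 ratio in 5 of 5 mice. The log2 ratio of Cyp17a1 exceeded that of Cyp11a1 in each mouse, by 1.05 ± 0.62 (SD, n = 5), and that of Cyp11a1 exceeded that of Hsd3b1 in each, by 1.17 ± 0.33. By contrast Star and Por could not be ordered, since Star had the larger ratio in 3 of 5 mice and the mean difference was 0.02 ± 0.46. Hsd3b1 and Fdxr were alike in this, with a mean difference of 0.13 ± 0.54 and the larger ratio for Hsd3b1 in 2 of 5 mice. These differences between genes were not tested.

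**Figure D2:**
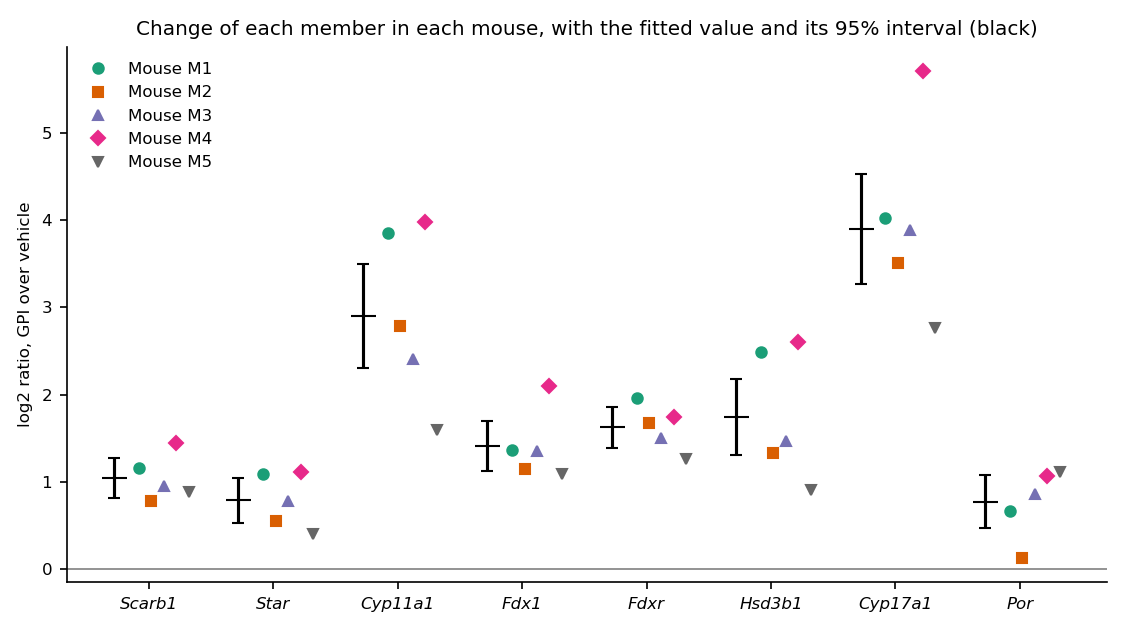
The log2 ratio of GPI over vehicle for each member in each of 5 mice (coloured points) beside the fitted log2 fold change with its 95% interval (black). Mouse M4 is the highest point for 6 of 8 members and mouse M5 the lowest for 6 of 8, and every point is above 0, the closest being Por in mouse M2 at 0.13.

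Gonads of the same treatment differed from each other in a way that most members shared. With 1 gonad of an embryo per treatment, differences of embryo, culture and library cannot be told apart. With vehicle, mouse M5 was highest for 7 of 8 members and mouse M1 lowest for 6, Por being the member for which mouse M1 was highest. With GPI, mouse M4 was highest for 7 of 8, with mouse M5 highest for Por, and mice M1 and M2 were each lowest for 4. The embryo with the high vehicle gonad was therefore not the one with the high GPI gonad, and the largest log2 ratio fell in mouse M4 for 6 of 8 members and the smallest in mouse M5 for 6 of 8. Across the 8 members the median log2 ratio was 1.66 in mouse M1, 1.24 in M2, 1.41 in M3, 1.93 in M4 and 1.10 in M5. The spread among vehicle gonads set the 3 enzymes Cyp17a1, Cyp11a1 and Hsd3b1 apart, with coefficients of variation of 73.7%, 66.2% and 51.9%, against 15.9% (Star) to 27.1% (Fdxr) for the other 5. With GPI these 3 varied by 46.3%, 27.2% and 24.4%, and the other 5 by 15.1% (Fdxr) to 19.7% (Por).

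Levels of different genes were set side by side in CPM per kilobase, where CPM are counts per 1000000 of effective library size and the length is that of the gene's longest GENCODE transcript. On this scale the vehicle gonads had most Hsd3b1, 75.1 ± 39.0 (SD, n = 5), followed by Cyp11a1 at 21.3 ± 14.1, and least Cyp17a1, 3.77 ± 2.78. Between them lay Fdxr (11.8 ± 3.20), Fdx1 (10.7 ± 1.88) and Scarb1 (10.1 ± 1.89), which did not differ beyond their spread, and then Por (7.22 ± 1.36) and Star (6.31 ± 1.01), which did not either on this length. The range of Cyp17a1 with vehicle, 1.53 to 8.27, covered that of Star. With GPI the order began with Hsd3b1 at 230 ± 56.2 and Cyp11a1 at 138 ± 37.6, and Cyp17a1 came to place 3 at 54.4 ± 25.2, from place 8 with vehicle. Below it were Fdxr (35.8 ± 5.42), Fdx1 (28.6 ± 5.37) and Scarb1 (20.9 ± 3.40), and at the end Por (12.3 ± 2.43) and Star (10.9 ± 1.84), again within their spread of each other. This place of Cyp17a1 was not firm in every library, as its range of 25.8 to 88.9 overlapped the 27.4 to 41.7 of Fdxr. Dividing by the mean length of a gene's transcripts instead kept Cyp17a1 at place 8 with vehicle and place 3 with GPI, but put Cyp11a1 (274) above Hsd3b1 (243) with GPI. It also moved Scarb1 (21.6) above Fdx1 (20.9) and Fdxr (18.9) with vehicle, and set Por (17.1 with vehicle, 29.2 with GPI) farther above Star (10.9 and 18.9), so that the order of these closer genes depends on the length used.

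**Figure D3:**
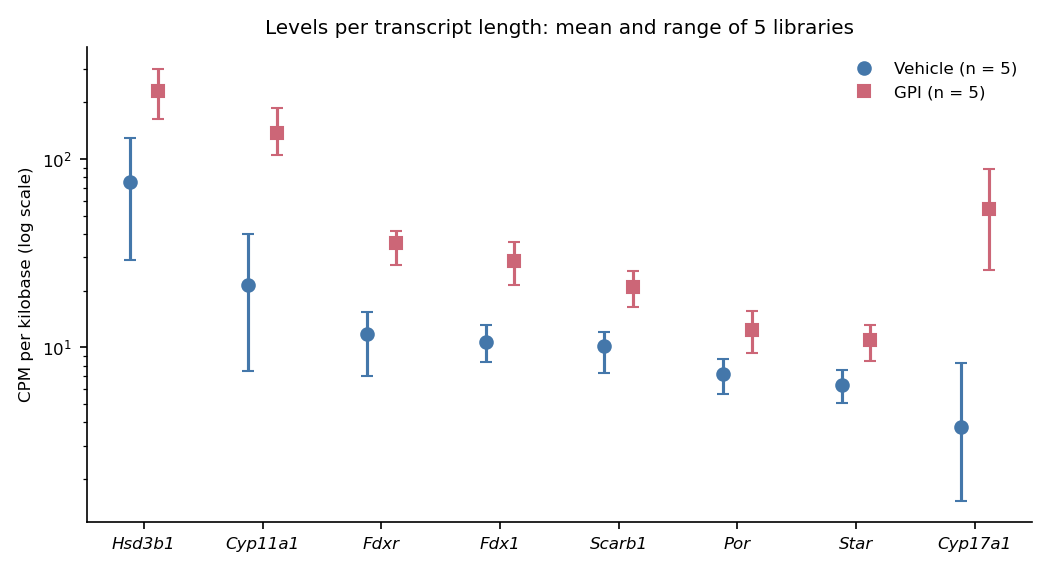
Levels of the 8 members in CPM per kilobase (log axis), with vehicle (circles) and GPI (squares), where points are means and bars run from the lowest to the highest of 5 libraries. Genes are in the order of their vehicle means, from Hsd3b1 (75.1) to Cyp17a1 (3.77), and the GPI mean of Cyp17a1 (54.4) lies above those of Fdxr, Fdx1, Scarb1, Por and Star.

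Ratios within a library, on the same scale per length, showed how the balance of the enzymes shifted. Cyp11a1 stood at 0.205 to 0.346 of the level of Hsd3b1 in the vehicle libraries and at 0.501 to 0.664 in the GPI libraries, but with mean transcript lengths at 0.384 to 0.649 and 0.940 to 1.25, so that which of them leads with GPI depends on the length used. Cyp17a1 stood at 0.137 to 0.206 of Cyp11a1 with vehicle and at 0.239 to 0.479 with GPI. The groups did not overlap in either ratio, with either length. Against its electron carrier Fdx1, Cyp11a1 went from a median of 1.57 (0.719 to 3.05) to 4.88 (4.01 to 5.65), and against Star from 2.61 (1.47 to 5.34) to 12.3 (9.95 to 14.1). Cyp17a1 over Por moved from a median of 0.350 (0.177 to 1.15) to 3.73 (1.87 to 7.49), again without overlap. Only the ratio of Fdx1 to Fdxr overlapped between groups, with 0.678 to 1.48 (median 0.870) with vehicle and 0.626 to 0.983 (median 0.782) with GPI. Summed over the 8 members, the level in CPM was 191, 323, 431, 252 and 552 in the vehicle libraries of mice M1 to M5 and 996, 1030, 1530, 1757 and 1308 in their GPI libraries.

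No member shares reads with a neighbour by position, since none of the 8 overlaps another entry of the table. Nor does any stretch of 100 bases in the longest transcript of a member occur in a transcript of another gene, which matters for Hsd3b1, a member of a family of similar genes.

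Of 22 other enzymes of steroid hormone synthesis and inactivation in the table, 11 were tested, 5 (45.5%) were called higher and 0 lower, beside 11.1% and 11.9% of all tested genes, and the median log2 fold change was 0.33, beside 0.019. Hsd17b3, whose product makes testosterone in the testis, rose from 109 ± 60.0 to 250 ± 120 normalized counts (SD, n = 5 each), with a log2 fold change of 1.23, and Hsd17b1, a related reductase, had a log2 fold change of 2.0 and reached 54.4 ± 34.2 normalized counts with GPI. The others were Hsd17b7 (0.86), Hsd3b6 (1.66), a close relative of Hsd3b1 that shares 3.29% of its 100-base stretches with Hsd3b3, and Srd5a1 (0.91), which shares 14.9% with transcripts of another gene and did not pass without mouse M4 (adjusted p = 0.0552, edgeR's quasi-likelihood F test with Benjamini-Hochberg correction). Against Hsd3b1 at 1718 ± 892 normalized counts with vehicle, Hsd3b6 had 18.4 ± 6.25. Cyp19a1, the aromatase gene that would carry the pathway on to estrogen, had 0 to 5 counts in a library and was not tested. The enzymes that lead to adrenal steroids were at or near 0, with no count of Cyp21a1 or Cyp11b2 in any of the 10 libraries and 0 to 4 counts of Cyp11b1.

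Cholesterol handling outside Scarb1 and Star gave no such common direction. Of 24 tested genes for uptake, transfer, storage and efflux, 4 (16.7%) were called higher and 3 lower, with a median of -0.04. Such shares lie near the 11.1% and 11.9% of all tested genes. Those higher included the lysosomal carrier Npc2 (0.44), the sterol transfer gene Gramd1b (1.13), which overlaps another entry, and the efflux pump Abca1 (0.47). Lower were Apoe (-0.61), Acbd3 (-0.33) and Mylip (-0.75), each value in this list a log2 fold change. Without mouse M2, or without mouse M5, 1 gene of the list was called lower. Mylip did not pass with limma-voom, without the replicate block or when any mouse but M1 was left out, nor Acbd3 without M2, M4 or M5. Npc1 (0.19) and Stard4 (-0.14), which move cholesterol out of lysosomes and between membranes, did not pass.

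Electron carriers beside Fdx1, Fdxr and Por numbered 7 tested genes, of which 5 (71.4%) were called higher and 0 lower, beside 11.1% and 11.9% of all tested genes, with a median of 0.41, beside 0.019. They were Pgrmc1 (0.74), Cyb5r1 (0.72), Cyb5a (0.68), whose cytochrome assists the lyase step of Cyp17a1, Cyb5b (0.41) and Pgrmc2 (0.34), each value a log2 fold change. Cyb5b did not pass with total counts alone or when any mouse but M1 was left out. Fdx2, the second mitochondrial ferredoxin, had 1 to 9 counts in a library and was not tested, and since it overlaps another entry its reads may have gone uncounted. Of 9 genes for assembly of the iron-sulfur cluster that ferredoxin carries, 3 (33.3%) were higher and 0 lower (median 0.12), namely Iscu (0.80), Hspa9 (0.52) and Hscb (0.37), of which Hscb lost its call with DESeq2, without the replicate block, with total counts alone, with no filter on low counts and without mouse M1, M3, M4 or M5.

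Among 13 other tested enzymes that take electrons from Fdx1 or Por, 4 (30.8%) were called higher and 3 (23.1%) lower, both above the 11.1% and 11.9% of all tested genes, with a median of 0.28, beside 0.019. Cyp26b1, which clears retinoic acid, rose by 1.81, the sterol synthesis genes Dhcr7, Cyp51 and Sqle by 1.05, 0.80 and 0.51, and Cyp1b1, Cyp2s1 and Cyp20a1 changed by -1.53, -1.22 and -0.58, all on the log2 scale. Genes of this list thus went both ways. Sqle did not pass without mouse M2, M3, M4 or M5, and Cyp27a1 (1.02) passed only without mouse M2.

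Of 21 genes for transcriptional and cAMP control of the pathway, 6 (28.6%) were called higher and 2 (9.52%) lower, with a median of 0.15, beside 0.019 for all tested genes. The lower share is near the 11.9% of all tested genes, and the higher one above their 11.1%. Nr5a1, the steroidogenic factor known to act on most members, went from 261 ± 60.7 to 556 ± 70.3 normalized counts (SD, n = 5 each; log2 fold change 1.11), a change close to that of Scarb1 and below that of Cyp11a1. Lhcgr, the luteinizing hormone receptor, had a log2 fold change of 2.65, next to the 2.90 of Cyp11a1, and the others were Prkar2b (1.54), Mrap (1.64), Gata4 (0.53) and Mamld1 (0.52). Lower were Nr5a2 (-1.58) and Pde8a (-0.43), again as log2 fold changes. The number of lower calls was 4 without mouse M2, 1 without M3 and 0 without M4 or M5, and Mrap and Pde8a did not pass without M4 or M5, nor Nr5a2 without M3, M4 or M5.

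**Figure D4:**
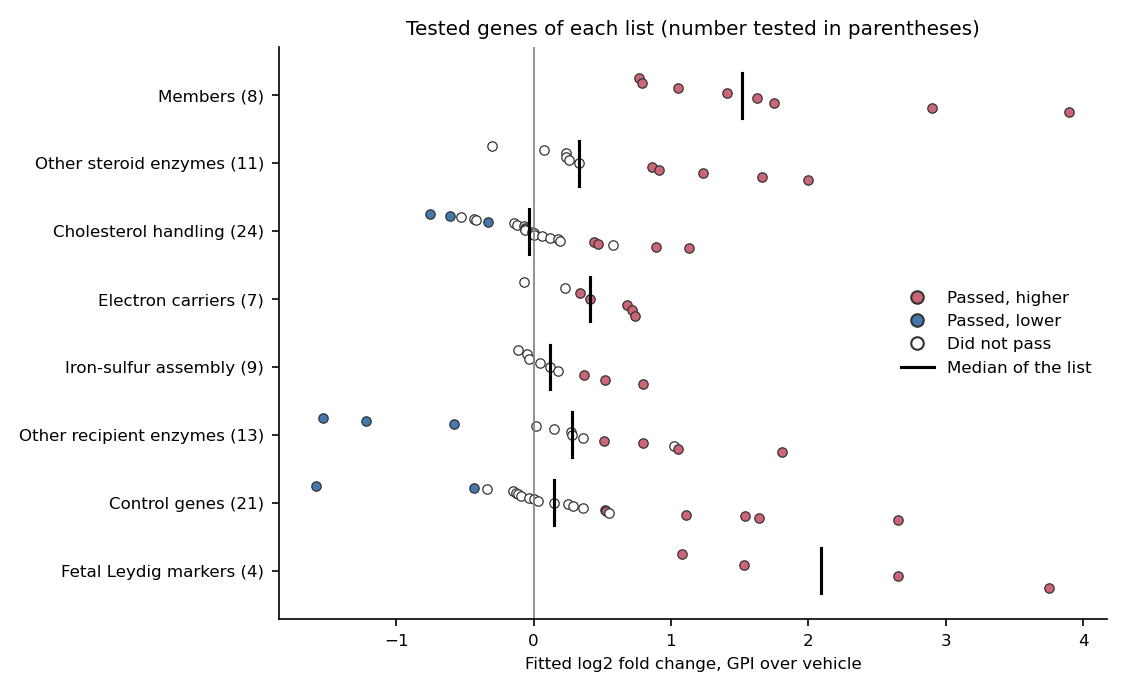
Fitted log2 fold changes of the tested genes in the members' list, in 6 lists of related genes and in the fetal Leydig cell marker list, with the list's median as a bar and the calls by fill. The members' median is 1.52, the medians of the 6 related lists lie between -0.04 and 0.41, and that of the Leydig markers, 2.09, is raised by the scarce Crhr1.

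Marker lists of the cell types in or near the gonad were read beside the members. Of 5 fetal Leydig cell markers outside steroid synthesis, 4 were tested and 4 were called higher, beside 11.1% of all tested genes called higher and 11.9% lower. They were Lhcgr (2.65), Prlr (1.53) and Ren1 (1.08), as log2 fold changes, Ren1 failing to pass without mouse M4, and Crhr1. With 0 to 4 counts in a vehicle library and 10 to 31 in a GPI library, Crhr1 is too scarce for the size of its change to be relied on. It was called with no filter on low counts but was not kept at 10 counts in every library, where the list had 3 genes higher. Their summed level was 114, 172, 211, 165 and 241 CPM in the vehicle libraries of mice M1 to M5 and 536, 462, 632, 549 and 511 in the GPI libraries. Mice M1 and M5 were thus lowest and highest with vehicle in this sum, as they were in the sum of the members, but with GPI mouse M3 led the markers and mouse M4 the members. Prlr was the most abundant of the list, and Insl3, a hormone gene of Leydig cells that overlaps Jak3, had 0 to 7 counts in a library. Adrenal cortex markers summed to 3.63 to 7.24 CPM with vehicle and 5.39 to 15.1 with GPI, with Mc2r the most abundant and 1 of 3 tested called higher (0 without mouse M4 or M5). Sertoli cell markers (4 of 6 higher, 0 lower, most abundant Aard) summed to 232 to 372 CPM with vehicle and 253 to 624 with GPI, and interstitial progenitor markers (1 of 5 higher, 2 lower, most abundant Pdgfra) to 1140 to 1342 and 1155 to 1393. Aard was not called without the replicate block or without mouse M3, and none of the interstitial list was called lower without mouse M2, M3 or M4.

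The remaining lists differed in direction, and their calls stand beside 11.9% of all tested genes lower and 11.1% higher. Germ cell markers (4 of 4 tested lower, most abundant Dazl) summed to 47.5 to 158 CPM with vehicle and 2.0 to 10.3 with GPI, and endothelial markers (6 of 6 lower, most abundant Cdh5) to 555 to 632 and 40.9 to 75.0. Macrophage markers (4 of 5 lower, most abundant Mrc1) summed to 26.4 to 42.9 and 9.01 to 17.1, and erythroid markers (7 of 7 lower, most abundant Hbb-y) to 146 to 382 and 63.0 to 161. Mesonephric markers (0 of 2 called, most abundant Pax8) had median sums of 27.4 and 21.4, and pre-granulosa markers (1 of 3 higher, most abundant Bmp2) summed to 16.4 to 24.7 and 20.7 to 27.3. That call, of Bmp2, was lost without the replicate block and without mouse M4. At 10 counts in every library, 1 germ cell and 2 macrophage markers were called lower. Cdh5, Mrc1 and Pdgfra overlap other entries, and Lhcgr, Mc2r and Mrap stand both in a marker list and among the control genes. For none of these 10 marker lists was its part in the members' result tested.

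**Figure D5:**
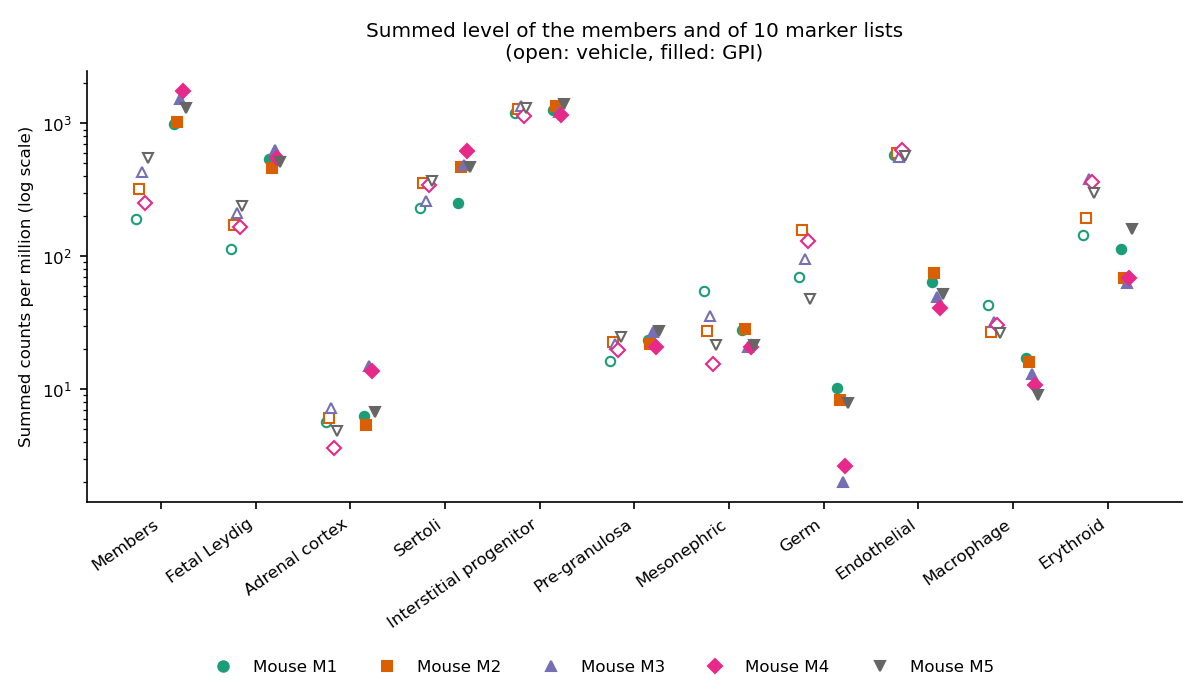
Summed CPM (log axis) of the 8 members and of 10 marker lists in each vehicle library (open) and each GPI library (filled), with the mouse given by colour and shape. The members go from 191 to 552 with vehicle to 996 to 1757 with GPI, the Leydig markers from 114 to 241 to 462 to 632, and the endothelial markers from 555 to 632 down to 40.9 to 75.0.

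Genes whose pattern was most like that of the members were sought among 11105 tested genes that averaged at least 50 counts, by Pearson's r between log2 CPM and the members' mean standardised profile over the 10 libraries. Of genes outside the members, Adh1, a retinol and alcohol dehydrogenase, came first (r = 0.994), followed by Gsta4 (0.992), Sfrp4 (0.992), Prkar2b (0.990) and Pak3 (0.989). The difference between treatments makes most of these values, and the members are themselves part of the profile. After each treatment's mean was taken off, differences among gonads of the same treatment were left. Adh1 (0.962), Aldh1a7 (0.953), Trib2 (0.953), Sidt2 (0.947) and Pak3 (0.944) were then the most alike, Sidt2 sharing 10.5% of its 100-base stretches with transcripts of another gene. By the latter measure Cyp17a1 (0.968), Hsd3b1 (0.951) and Cyp11a1 (0.932) followed the profile closely, Scarb1 (0.879), Star (0.864), Fdx1 (0.824) and Fdxr (0.818) less so, and Por hardly at all (0.019). Por thus rose with the other members between treatments, yet did not vary with them among gonads of the same treatment.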

How the data were processed

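RNA of 10 gonads was sequenced as Ovation and Celero libraries. The authors aligned the reads to mm10 using STAR (2.5 in the submitters' processing notes), made unstranded counts per gene on NCBI RefSeq Curated models with featureCounts (Subread 1.5.0-p1), and deposited these counts, which were used here unchanged. Counts of amplified libraries are not independent molecules, so that precision was read from the spread between mice. Genes were filtered with filterByExpr (minimum count 10, minimum total 15), which set aside 10529 of 24470, scaled by TMM and tested with edgeR 4.0.16 (R 4.3.3) by its quasi-likelihood F test, with Benjamini-Hochberg adjusted p-values over 13941 genes at an FDR of 0.05, with mouse and treatment in the design. Log2 ratios in single mice used a prior count of 2. The labels give the animal of each gonad. As a check on the pairing, deviations from the treatment mean correlated at -0.04 to 0.155 within a mouse (mean 0.06) and at -0.015 on average between mice. No libraries were duplicates, with chi-square values per degree of freedom of 6.42 to 27.8 within a treatment.

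The members and lists were chosen with earlier results of these data known, and lists are described by counts and medians beside those of all genes. Genes named were the members, the first 3 and the 3 tested genes with the smallest p of each list, and the 5 genes most like the members by each measure. Other called genes of short lists were added after their values were seen, marker genes were named more sparingly, and 1 gene that the rule names is not reported here. Transcript lengths came from GENCODE M21 by Entrez identifier. Promoters came from RefSeq, and motifs were searched as exact letters in the 250 bases before each start, so that variant forms were not counted.

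The alternatives were DESeq2 1.42.0, limma-voom (limma 3.58.1), DESeq2 size factors in edgeR, no replicate block, total counts alone, no filter on low counts, at least 10 counts in every library, each mouse left out in turn, and for levels per length the mean transcript length or total counts. Python 3.11.15, pandas 2.3.3, scipy 1.17.1 and matplotlib 3.10.9 were used.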

Additional observations from a re-analysis of the deposited data

How the results depend on the processing

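All 8 members were called higher under each of the 12 alternatives, 96 of 96 values, with log2 fold changes of 3.51 to 4.29 for Cyp17a1, 2.63 to 3.24 for Cyp11a1, 1.53 to 1.97 for Hsd3b1, 1.53 to 1.72 for Fdxr, 1.24 to 1.5 for Fdx1, 0.95 to 1.11 for Scarb1, 0.70 to 0.89 for Star and 0.68 to 0.93 for Por. Without the replicate block 3108 genes were called in place of 3198, and among the counts given for the members and lists, only that of pre-granulosa markers called higher, 1, changed by more than 1.5 times, to 0. The count of cholesterol handling genes called lower, 3, became 5 with no filter on low counts and 1 to 4 with a mouse left out, and that of control genes called lower, 2, became 1 with at least 10 counts in every library and 0 to 4 with a mouse left out. With at least 10 counts in every library, adrenal markers called higher went from 1 to 0, and germ cell and macrophage markers called lower from 4 each to 1 and 2. With a mouse left out, adrenal and pre-granulosa markers called higher, 1 each, became 0 to 1, and interstitial markers called lower, 2, became 0 to 2. The cause was not tested. Of 59 named genes called, 12 lost the call under at least 1 alternative, and none reversed its direction. With 5 mice, differences among vehicle gonads of up to 5.40 times limit how finely the members can be ordered. Levels per length depend on the transcript chosen, and 14 of the 16 means moved by more than 1 SD when mean transcript lengths were used.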
